A study of Homo sapiens with 6 samples.

Results

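Antisense RNA genes with names ending in -AS1 were followed in A549 cells after knockdown of BAP18. The members were the genes of the deposited count table whose symbol ends in -AS1 and that had at least 50 counts in each of the 6 libraries. Of 842 genes with such a name, 277 met this minimum, in a table of 35474 genes of which 14873 had at least 50 counts in every library. The groups were 3 A549_siBAP18 and 3 A549_siCtrl cultures of the human lung adenocarcinoma line A549, given as 3 biological replicates each and collected 48 h after transfection with siRNA against BAP18 or with control siRNA. All cultures therefore carried a transfected siRNA, and which of the BAP18 siRNAs was used is not given in the sources used here, so that effects of 1 duplex beyond its target cannot be told apart from those of BAP18 loss. The question was which antisense genes changed when BAP18, the chromatin protein made from C17orf49, was depleted. It was also asked whether each antisense gene changed together with the gene it is named after, here called its partner.

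An antisense RNA is transcribed from the strand opposite to another gene. Some start inside their partner, some start near its promoter and run away from it, and others run into its 3′ end. Antisense RNAs are known to act on the same locus through transcription itself or through the RNA, and others act elsewhere or have no known role. In poly(A) RNA most are far less abundant than the mRNA of their partner, and where exons of the pair lie on the same bases, a read is assigned to one or the other only if the counting uses the strand.

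The siCtrl libraries held 53657450, 46035635 and 47099816 counts, and the siBAP18 libraries 53996860, 56548620 and 42094524. C17orf49 (chr17:7014495-7017525, + strand) had CPM values, counts scaled to library size, of 14.0, 16.2 and 15.1 in control cells and 2.21, 2.35 and 2.66 after knockdown, with no overlap. Its log2 fold change was −2.65 (SE 0.111, adjusted p = 7.31e-16, edgeR). MIR497HG, an antisense gene over C17orf49 and the host of microRNA genes, had 7.31, 8.97 and 8.41 CPM in siCtrl and 1.27, 1.18 and 1.78 CPM in siBAP18 cells, and its log2 fold change was −2.57 (SE 0.149, adjusted p = 3.92e-13, edgeR). It shared 38.2% of its exon bases with C17orf49, and the mean depth of C17orf49 on those bases alone would place 238 counts on it, beside a mean count of 235. Of its exon bases 16.1%, within that 38.2%, also lie on exons of the read-through gene RNASEK-C17orf49, which changed by −0.24 and whose mean depth would place 597 counts there, more than the count observed. A further opposite-strand gene over the C17orf49 locus, RP11-589P10.7, was also called lower (2.21 and 1.01 CPM, log2 fold change −1.14, adjusted p = 3.51e-05, edgeR). Epithelial markers of A549 were abundant, with KRT8 at 13440 CPM and ALDH1A1 at 9283 CPM in siCtrl cells. Several were lower after knockdown at adjusted p under 0.05, by log2 fold changes of −0.37 for KRT8, −0.24 for KRT18, −0.41 for EPCAM, −0.85 for ALDH1A1, −0.96 for AKR1B10 and −0.87 for AKR1C1, and CDH1, the epithelial cadherin gene, was called lower (63.9 and 25.5 CPM, −1.32). KRT19 (0.15) and ALDH3A1 (0.07) did not pass, and the part of these changes in the results below was not tested. The lung lineage markers SFTPB, SFTPC and NKX2-1 did not pass the filter on low counts. DCN, PTPRC and CD3E, markers of fibroblasts and leukocytes, were not listed among the genes. Of the other markers of such cells, COL1A1, a fibroblast collagen gene, was the most abundant, with 12.0 CPM in siCtrl and 9.17 in siBAP18 cells. It was lower by a log2 fold change of −0.38 (adjusted p = 0.00124, edgeR). COL3A1 (0.456 and 0.330 CPM) and the monocyte marker CD14 (1.05 and 0.940 CPM) did not pass adjusted p. The endothelial markers went both ways, PECAM1 called lower (0.718 and 0.245 CPM) and CDH5 called higher (0.286 and 0.620 CPM), and their part in the results was not tested.

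Exon sharing was measured first, because it decides how a count on an antisense gene can be read. The library kit marks the strand, but whether the counting used it is not given in the sources used here, so reads of a pair cannot be told apart on shared bases. Of the 277 members, 273 had a partner in the table, and all 273 lay on the strand opposite to it. In total 245 members shared exon bases with an opposite-strand gene, and for 41 of them the gene that would contribute most counts was not the partner. For 101 members with at least 10% of their exon bases on partner exons, and at least 50 counts expected there at the partner's mean depth, the observed count was a median of 1.92 times that expectation (0.218 to 92.9). It was at least as large in 80 of the 101, between 0.5 and 2 times as large in 47, and under 0.1 times in 0. The expectation takes the partner's depth as even along its exons and scales it by shared bases alone. A read that only partly lies on a shared stretch can also be counted, so the expectation can be too low for short stretches. A count above it, here and below, is therefore not a measure of the antisense gene's own RNA. PAPPA-AS1, whose exon bases lay completely on exons of the metalloprotease gene PAPPA, had a mean count of 2854 against 1903 at the depth of PAPPA.

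**Figure D1:**
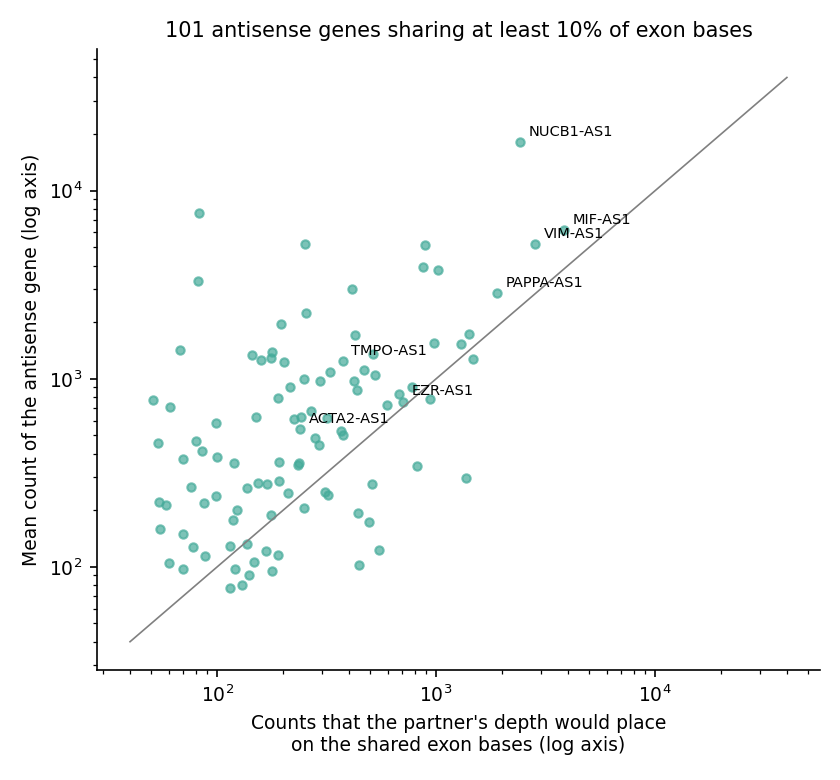
Mean count of each of 101 antisense genes (vertical, log axis) against the counts that the mean depth of its partner would place on the exon bases both share (horizontal, log axis), 1 point per gene, with the line of equality. Most points (80 of 101) lie on or above the line, and NUCB1-AS1 has the highest mean count.

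Levels differed widely. Mean RPKM over the 6 libraries, which scales counts by gene length, ran from 0.104 to 840 among members with a median of 2.33, and 41 members were above 10 RPKM and 76 below 1. In RPKM, 96 of the 273 members with a partner row stood above their partner. NUCB1-AS1, opposite a Golgi calcium-binding protein gene, led with 840 RPKM, beside 228 for NUCB1. UBE2Q1-AS1 followed with 153 RPKM, RAB11B-AS1 with 89.9, MIF-AS1 with 84.2 and RRM1-AS1 with 82.8, and EZR-AS1, FARSA-AS1, ODF2-AS1, VIM-AS1 and TGFB2-AS1 lay between 48.8 and 69.9 RPKM. These 10 genes were short, with a median of 433 exon bases against 2946 over all members, and 9 of them had 10.4% to 49.4% of their exon bases on partner exons. TGFB2-AS1, which starts 557 bases from the gene of the ligand TGF-beta 2 and runs away from it, shared none. It had 22.5, 23.6 and 21.2 CPM in siCtrl cells and 28.6, 35.4 and 31.8 CPM in siBAP18 cells, without overlap, a log2 fold change of 0.51 (SE 0.0805, adjusted p = 9.06e-06, edgeR) that misses the fold threshold set out below, and TGFB2 changed by 0.27 (adjusted p = 0.0039, edgeR). Among the other 9, RRM1-AS1, RAB11B-AS1 and ODF2-AS1 were lower and VIM-AS1 and FARSA-AS1 higher at adjusted p under 0.05. Their log2 fold changes were −0.51, −0.21, −0.19, 0.42 and 0.34, beside −0.57, −0.21, −0.22, 0.43 and 0.30 for their partners, and RAB11B-AS1 and ODF2-AS1 lost significance without siCtrl replicate 1 or 3 or siBAP18 replicate 1. NUCB1-AS1, at 0.09 (SE 0.083), and MIF-AS1, at 0.19 (SE 0.0857), did not pass, and without siBAP18 replicate 2 they moved to 0.17 and 0.29 and passed. Leaving out other single libraries gave values down to −0.044 for NUCB1-AS1 and 0.0542 for MIF-AS1. MIF-AS1 also passed with no filter, with at least 10 counts in every library and with the replicate block (0.18 to 0.20).

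To be called higher or lower, a gene among the 20776 tested needed an adjusted p below 0.05 together with a log2 fold change above 1 or below −1. By this rule 10 of the 277 members were higher in siBAP18 cells, where 4.72% of all genes tested and 2.06% of genes with at least 50 counts in every library were. Another 4 members were lower, beside 3.74% and 2.94%. In either direction 5.05% of members were called, against 8.46% of all genes tested and 5.01% of those with at least 50 counts in every library, so the share of members called was near that of equally counted genes. At adjusted p alone 59 members were higher (24.5% of all genes tested, 28.1% of those with at least 50 counts), 60 were lower (25.1% and 30.7%) and 158 did not pass. The groups did not overlap in 141 members, where 56.6% of all genes tested and 64.6% of those with at least 50 counts had groups that did not overlap. The median log2 fold change was 0.01 over members and 0.00 over all genes tested.

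The largest rise was that of ADIRF-AS1 (chr10:86965345-86971311, − strand), opposite a gene first described in fat cell differentiation. It had 2.84, 3.29 and 3.64 CPM in siCtrl cells and 31.4, 28.8 and 22.1 CPM in siBAP18 cells. The lowest siBAP18 library lay far above the highest siCtrl library, and the log2 fold change was 3.08 (SE 0.121, adjusted p = 2.06e-16, edgeR). ADIRF rose with it, from 1.01 ± 0.155 to 6.99 ± 0.86 CPM (SD, n = 3), and so did AGAP11, RP11-96C23.15 and MMRN2, which overlap the same locus, by 2.99, 2.90 and 2.47 on the log2 scale. The depth of ADIRF would place 189 counts on the 15.95% of exon bases that ADIRF-AS1 shares with it, of a mean count of 793. ACTA2-AS1 (chr10:88932390-88940820, + strand) runs into the 3′ end of ACTA2, the smooth muscle actin gene. Its level was 4.93, 3.91 and 4.56 CPM in siCtrl and 18.3, 15.3 and 17.3 CPM in siBAP18 libraries. The groups stood well apart, with a log2 fold change of 1.92 (SE 0.104, adjusted p = 1.13e-13, edgeR) beside 1.89 for ACTA2. At the depth of ACTA2, the shared 16.2% of its exon bases would hold 240 counts, of a mean count of 542. SYNE1-AS1 (chr6:152380546-152381564, + strand), inside the gene of the nuclear envelope protein nesprin-1, had 1.45, 1.83 and 1.80 CPM in siCtrl and 6.14, 4.98 and 4.49 CPM in siBAP18 cells. That is a log2 fold change of 1.63 (SE 0.156, adjusted p = 3.43e-09, edgeR) without overlap, beside 0.47 for SYNE1.

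LBX2-AS1, SOCS2-AS1 and FOXD3-AS1, with transcription factor or signaling genes as partners, are given together and not in order of size. LBX2-AS1 (chr2:74502595-74504678, + strand), which overlaps a homeobox gene, had 1.99, 1.18 and 1.41 CPM in siCtrl and 4.80, 4.57 and 4.86 CPM in siBAP18 libraries, a log2 fold change of 1.62 (SE 0.166, adjusted p = 1.09e-08, edgeR). LBX2 itself rose by 1.10. The depth of LBX2 would place 54.6 counts on the 31.2% of exon bases that LBX2-AS1 shares with it, of a mean count of 159. SOCS2-AS1 (chr12:93542463-93571768, − strand) overlaps the 5′ end of SOCS2, a feedback inhibitor of cytokine signaling. It went from 1.77, 1.12 and 1.95 CPM to 5.29, 4.37 and 4.93 CPM without overlap, a log2 fold change of 1.59 (SE 0.169, adjusted p = 2.08e-08, edgeR) beside 1.39 for SOCS2. Only 7.26% of its exon bases lay on SOCS2 exons. FOXD3-AS1 (chr1:63320884-63324441, − strand), which shares 14.8% of its exon bases with a forkhead factor gene, had 4.19, 4.17 and 4.32 CPM in siCtrl and 9.08, 8.05 and 8.66 CPM in siBAP18 cells. Its log2 fold change of 1.02 (SE 0.108, adjusted p = 1.73e-08, edgeR) lay just past the threshold and was 0.98 without siBAP18 replicate 1, and FOXD3 had a log2 fold change of 0.88.

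SERTAD4-AS1 (chr1:210231456-210234047, − strand) had 1.60, 1.44 and 2.10 CPM in siCtrl and 5.75, 4.97 and 4.27 CPM in siBAP18 cells, a log2 fold change of 1.55 (SE 0.161, adjusted p = 1.37e-08, edgeR). SERTAD4 stayed below 1 CPM in every library and changed by 0.27 (SE 0.289, adjusted p = 0.473, edgeR). ST20-AS1 (chr15:79922771-79926993, + strand) had 8.74, 10.3 and 9.73 CPM in siCtrl and 20.2, 19.2 and 19.4 CPM in siBAP18 cells. The groups were far apart, but the log2 fold change of 1.03 (SE 0.085, adjusted p = 2.33e-10, edgeR) was near the threshold, and it was 0.96 without siCtrl replicate 1. ST20 rose by 1.10. The read-through gene ST20-MTHFS, with which ST20-AS1 shares 8.79% of its exon bases, changed by 0.63, and its depth would place 493 counts there, of a mean count of 734 on ST20-AS1.

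**Figure D2:**
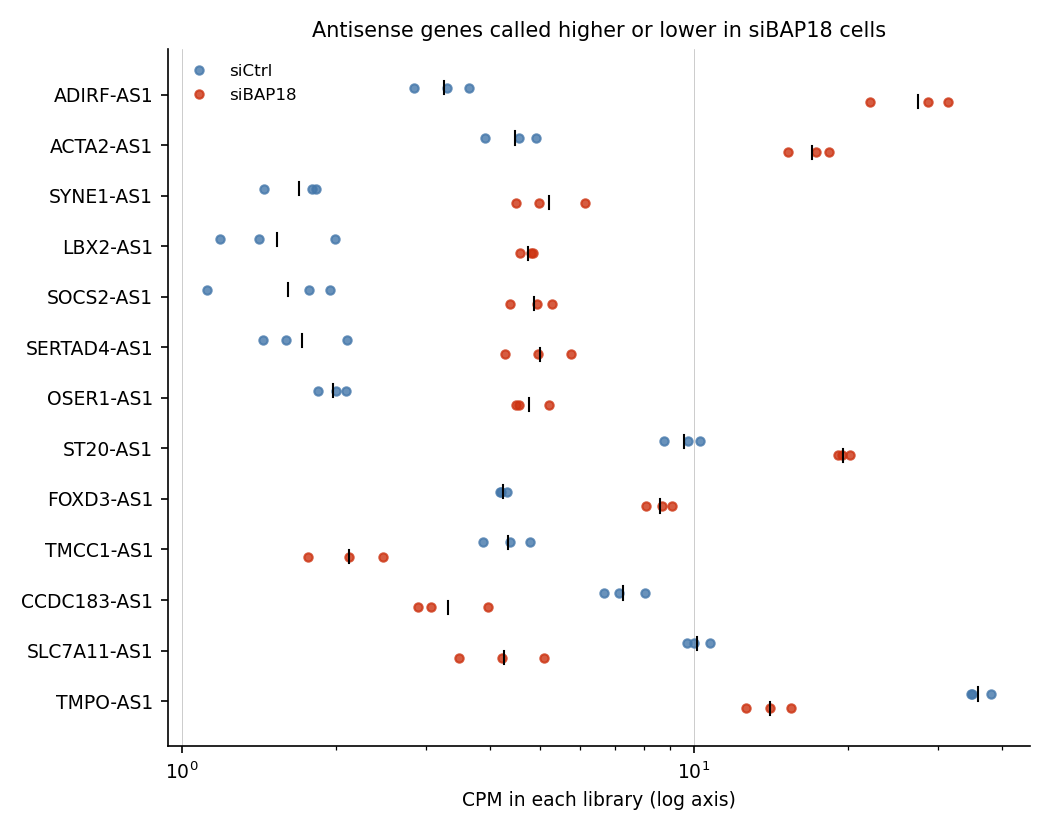
CPM of 13 antisense genes called higher or lower, 1 point per library, siCtrl in blue and siBAP18 in red, on a log axis, with a black tick at the mean of 3 libraries. In every gene the siCtrl and siBAP18 points lie apart.

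OSER1-AS1, which rose, and TMCC1-AS1, which fell, share no exon base with an opposite-strand gene. In each pair the antisense gene and its partner start close together and run apart, a head-to-head arrangement in which the bases between the starts can serve both directions. In the deposited exon positions the starts lay 169 bases apart for OSER1 and 295 for TMCC1. OSER1-AS1 (chr20:44210960-44226027, + strand), beside a gene named for its response to oxidative stress, had 2.09, 2.00 and 1.84 CPM in siCtrl and 5.22, 4.56 and 4.49 CPM in siBAP18 cells. All siBAP18 libraries lay above all siCtrl libraries, with a log2 fold change of 1.27 (SE 0.142, adjusted p = 5.06e-08, edgeR), and OSER1 rose more, by 1.67 (SE 0.068). TMCC1-AS1 (chr3:129893871-129918575, + strand), beside the gene of an endoplasmic reticulum membrane protein, had 4.78, 4.37 and 3.87 CPM in siCtrl and 1.76, 2.47 and 2.12 CPM in siBAP18 cells, a log2 fold change of −1.03 (SE 0.153, adjusted p = 3.72e-06, edgeR) without overlap, and TMCC1 changed by −0.63. Leaving out siCtrl replicate 1 or siBAP18 replicate 1 took TMCC1-AS1 to −0.96 or −0.91, inside the fold threshold, and limma on log2(RPKM + 0.1) also put it there.

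Bases before the antisense start are shown for pairs of this arrangement whose members moved together, OSER1 and TMCC1, and for pairs described further on, in which signs were opposite (BAIAP2 and CEBPA) or the ratio changed (SCAMP1 and SSTR5). They were taken from RefSeq promoter windows (GRCh38.p14), which matched 204 of the 277 members, and each run reads 5′ to 3′ toward the antisense start. A run holds the bases of the window, which begins 250 bases before the RefSeq antisense start, that lie between the pair's starts by both the RefSeq and the deposited positions. RefSeq start minus deposited start in genome positions was 0 bases for OSER1-AS1, TMCC1-AS1 and SSTR5-AS1, 34 for SCAMP1-AS1, −36 for CEBPA-AS1 and −162 for BAIAP2-AS1, whose run therefore lies at the far end of its window. The runs are chr20:44210792-44210959 (+ strand) for OSER1-AS1, chr3:129893712-129893870 (+ strand) for TMCC1-AS1, chr17:81034882-81034969 (− strand) for BAIAP2-AS1, chr19:33302571-33302820 (+ strand) for CEBPA-AS1, chr5:78360542-78360582 (− strand) for SCAMP1-AS1 and chr16:1078732-1078780 (− strand) for SSTR5-AS1. Capitals mark GC boxes (GGGCGG) and CCAAT boxes (CCAAT) on either strand, which do not overlap each other here.
OSER1-AS1: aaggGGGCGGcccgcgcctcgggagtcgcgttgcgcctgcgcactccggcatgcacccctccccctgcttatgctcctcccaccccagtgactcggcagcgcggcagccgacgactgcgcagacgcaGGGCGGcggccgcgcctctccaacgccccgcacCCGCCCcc
TMCC1-AS1: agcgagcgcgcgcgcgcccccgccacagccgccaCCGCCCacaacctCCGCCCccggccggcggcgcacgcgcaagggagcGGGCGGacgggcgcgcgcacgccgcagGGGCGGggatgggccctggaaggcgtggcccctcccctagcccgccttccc
BAIAP2-AS1: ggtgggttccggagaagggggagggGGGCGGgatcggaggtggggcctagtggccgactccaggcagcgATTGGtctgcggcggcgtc
CEBPA-AS1: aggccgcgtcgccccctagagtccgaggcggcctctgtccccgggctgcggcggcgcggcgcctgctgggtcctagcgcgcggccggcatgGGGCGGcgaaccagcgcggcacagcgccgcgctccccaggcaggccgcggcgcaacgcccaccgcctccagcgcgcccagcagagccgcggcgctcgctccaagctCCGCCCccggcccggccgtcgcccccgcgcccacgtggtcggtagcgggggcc
SCAMP1-AS1: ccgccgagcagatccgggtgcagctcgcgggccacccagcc
SSTR5-AS1: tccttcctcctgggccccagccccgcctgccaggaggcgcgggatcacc
GC boxes numbered 3 beside OSER1-AS1, 4 beside TMCC1-AS1, 1 beside BAIAP2-AS1, 2 beside CEBPA-AS1 and 0 beside SCAMP1-AS1 and SSTR5-AS1. Of all promoters, 38.1%, 37.4%, 15.2%, 42.5%, 14.6% and 19.2% held at least 1 at the same positions before the start. The only CCAAT box was beside BAIAP2-AS1 (11.0% of all promoters at those positions). None of the 6 runs held TATAAA, TGACGTCA or CTTTGA on either strand, and CACGTG occurred once, beside CEBPA-AS1. Over the 164 members whose RefSeq start lay within 250 bases of the deposited start, 56.1% of 300-base windows held a GC box and 35.4% a CCAAT box, against 44.9% and 34.6% of 34943 windows of all genes, and the median GC content was 63.3% against 58.7%. Of 9 called members with such a window, 3 held a GC box and 0 a CCAAT box.

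Among the members that fell, TMPO-AS1 (chr12:98512973-98516422, − strand) changed most. It overlaps the 5′ end of TMPO, which encodes lamina-associated polypeptide 2. It had 38.0, 34.9 and 34.7 CPM in siCtrl and 12.7, 15.5 and 14.1 CPM in siBAP18 cells, a log2 fold change of −1.35 (SE 0.0813, adjusted p = 7.92e-13, edgeR) without overlap. TMPO fell further, from 138 ± 1.35 to 44.1 ± 1.83 CPM (SD, n = 3), a log2 fold change of −1.65. The depth of TMPO would place 374 counts on the 21.2% of exon bases that TMPO-AS1 shares with it, of a mean count of 1239. SLC7A11-AS1 (chr4:138057464-138178177, + strand) runs into the 3′ end of SLC7A11, the cystine and glutamate exchanger gene. Its level was 9.68, 10.8 and 10.0 CPM in siCtrl and 4.23, 5.09 and 3.48 CPM in siBAP18 libraries, a log2 fold change of −1.24 (SE 0.119, adjusted p = 3.49e-09, edgeR), and SLC7A11 fell alongside by 1.12 on the log2 scale. The depth of SLC7A11 would place 237 counts on the shared bases, of a mean count of 359 on SLC7A11-AS1. CCDC183-AS1 (chr9:136803927-136808848, − strand) had 7.15, 6.67 and 8.04 CPM in siCtrl and 3.07, 3.96 and 2.89 CPM in siBAP18 cells, a log2 fold change of −1.13 (SE 0.13, adjusted p = 7.39e-08, edgeR) beside −0.75 for CCDC183, which covers 26.1% of its exon bases and would place 137 counts there. It also shares 27.0% of its exon bases with RP11-216L13.19, which changed in the other direction, by 0.38, and whose depth would place 223 counts there, of a mean count of 264.

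Across the 268 pairs in which both genes were tested, the log2 fold changes of antisense gene and partner had a Pearson r of 0.65. This is a description across genes of the same 6 libraries, and pairs share reads where their exons share bases. Over all 9080 pairs of opposite-strand genes that overlap or lie within 5000 bases, with any member pair further apart added, r was 0.39. The 268 pairs are among these 9080. The 9080 also include genes with under 50 counts in a library, so they are not matched in count to the 268 pairs. The median absolute difference of the log2 fold changes was smaller with more shared exon bases, whereas r did not follow the share in order. Without shared exon bases the difference was 0.49 and r 0.32 (43 pairs). With up to 10% shared they were 0.20 and 0.53 (89 pairs), and with 10% to 25% they were 0.12 and 0.86 (70 pairs). From 25% to 50% the difference was 0.12 and r 0.69 (44 pairs), and with 50% or more 0.05 and 0.85 (22 pairs). In 94 pairs both genes passed adjusted p, 87 with the same sign and 7 with opposite signs. The same count over all opposite-strand pairs is not given here, and whether this split is particular to the members was not tested. When each member with at least 10% of exon bases on its main opposite-strand gene was set beside that gene in place of its partner, r was 0.81 over 151 members and the median difference 0.10.

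**Figure D3:**
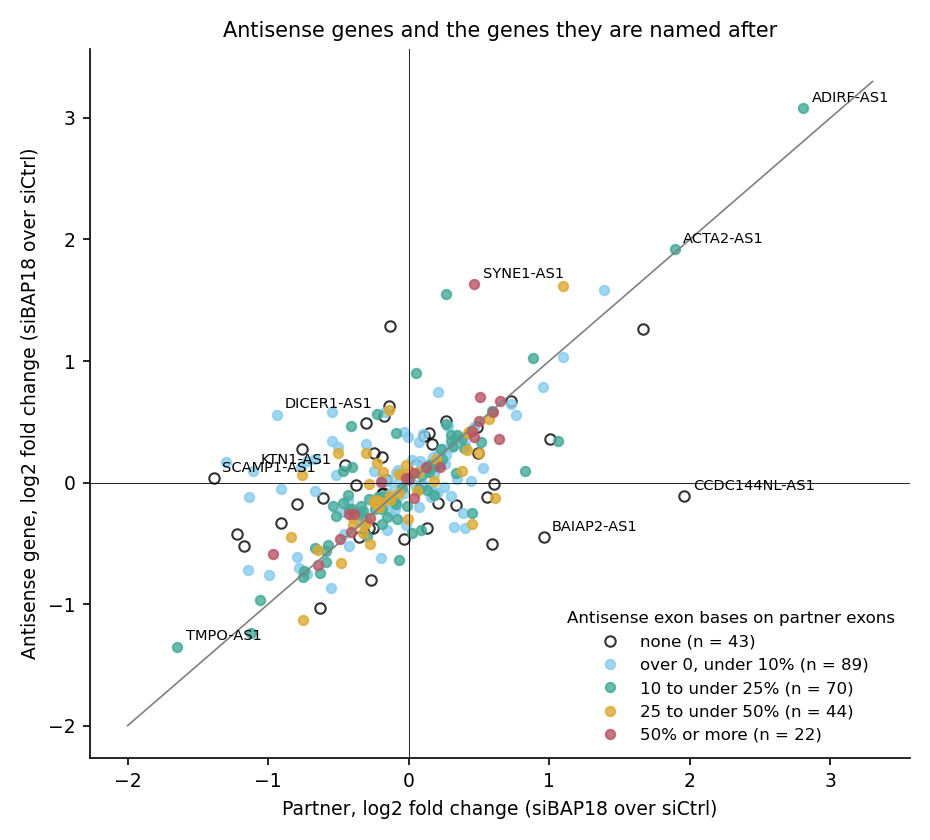
Log2 fold change (siBAP18 over siCtrl) of 268 antisense genes (vertical) against that of their partners (horizontal), 1 point per pair, coloured by the share of antisense exon bases on partner exons, open circles for none, with the line of equality. Among pairs with 50% or more shared bases SYNE1-AS1 lies farthest from the line, and SCAMP1-AS1 and BAIAP2-AS1, with none, lie away from it.

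**Figure D4:**
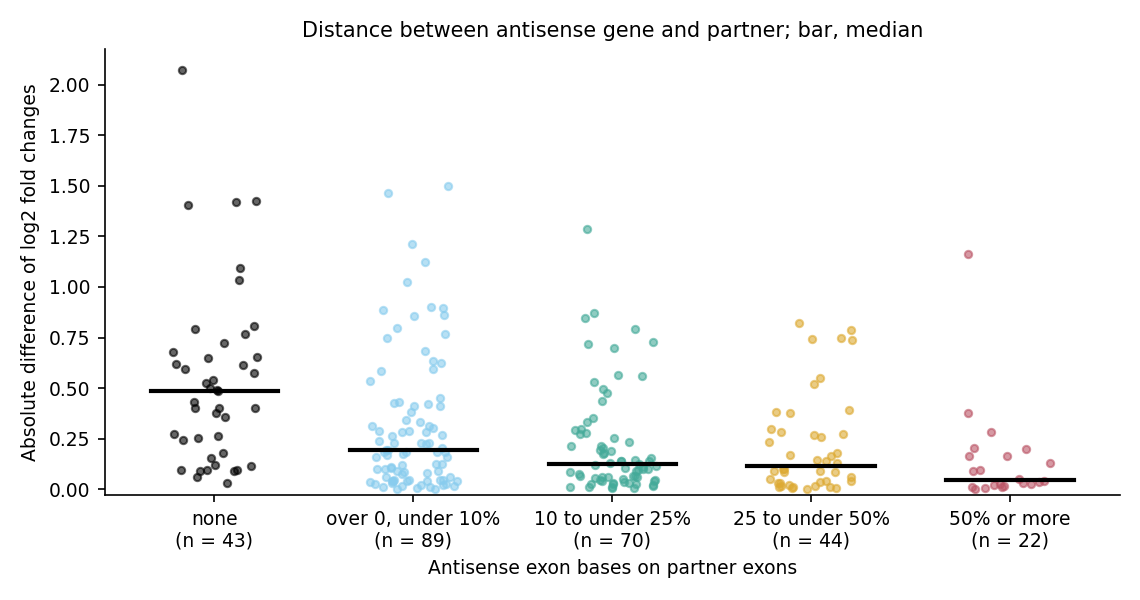
Absolute difference between the log2 fold changes of antisense gene and partner (vertical) in 5 classes of shared exon bases (horizontal), 1 point per pair, with a bar at the median. The medians run from 0.49 without shared bases to 0.05 with 50% or more.

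Whether the balance of a pair changed was tested on the difference of log2 CPM between antisense gene and partner in each library, fitted over all 9080 pairs with limma. The ratio of antisense gene to partner rose in 9 of the 268 pairs and fell in 3. Over all opposite-strand pairs 8.12% were called in either direction, and 5.75% of those with at least 50 counts in every library in both genes. DICER1, the enzyme that cuts microRNA precursors, had 70.7 ± 3.68 and 36.8 ± 2.27 CPM (SD, n = 3), a log2 fold change of −0.94, while DICER1-AS1 had 2.88, 3.35 and 2.61 CPM in siCtrl and 4.39, 3.99 and 4.69 CPM in siBAP18 cells. The antisense groups did not overlap, with a log2 fold change of 0.56, and the log2 ratio rose by 1.50 (SE 0.147, adjusted p = 0.000263, limma). The antisense to partner ratio was 0.0430, 0.0472 and 0.0352 in siCtrl and 0.123, 0.101 and 0.133 in siBAP18 cells. ID2, an inhibitor of basic helix-loop-helix factors, fell by 1.30 on the log2 scale, while ID2-AS1 changed by 0.17 (SE 0.216, adjusted p = 0.549, edgeR), and the log2 ratio rose by 1.44 (SE 0.27, adjusted p = 0.00548, limma).

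SCAMP1, which encodes a carrier protein of secretory membranes, fell from 13.1 ± 0.468 to 5.01 ± 0.0493 CPM (SD, n = 3). SCAMP1-AS1, which starts 76 bases away and shares no exon base with it, had 7.07, 6.52 and 6.85 CPM in siCtrl and 7.59, 6.37 and 7.06 CPM in siBAP18 cells. Those groups overlapped, and the ratio rose by 1.42 on the log2 scale (SE 0.127, adjusted p = 0.00018, limma). KTN1, the kinectin gene, fell by 1.11, and KTN1-AS1 changed by 0.10 (SE 0.162, adjusted p = 0.643, edgeR), with a log2 ratio up by 1.20 (SE 0.102, adjusted p = 0.000143, limma). The depth of KTN1 would place 84.2 counts on the bases KTN1-AS1 shares with it, of a mean count of 132. In SERTAD4 and SYNE1 the ratio rose with the antisense gene. The rise was 1.14 for SYNE1-AS1 and 1.27 for SERTAD4-AS1, and the latter missed the adjusted p threshold without either of siCtrl replicates 1 and 2 or siBAP18 replicates 1 and 2 (0.0537 to 0.0692). Further rises were those of SEMA3F-AS1 (1.11) and TRAM2-AS1 (1.04), and TRAM2-AS1 was named after its value was seen.

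**Figure D5:**
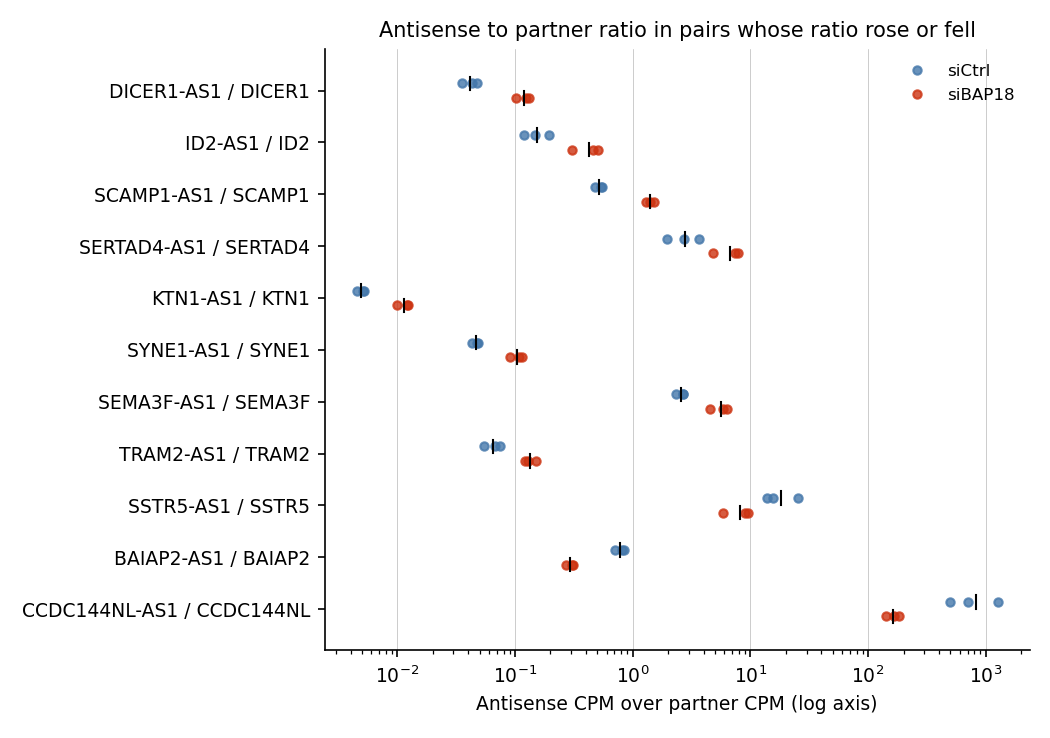
Antisense CPM over partner CPM in each library (log axis) for 11 pairs whose ratio rose or fell, siCtrl in blue and siBAP18 in red, with a black tick at the mean of 3. The siBAP18 points lie right of the siCtrl points in 8 pairs and left of them in 3.

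The ratio fell in BAIAP2-AS1, CCDC144NL-AS1 and SSTR5-AS1. BAIAP2, an adaptor gene of the actin cytoskeleton, had 19.2 ± 1.09 and 37.4 ± 3.33 CPM (SD, n = 3), a log2 fold change of 0.96. BAIAP2-AS1, which starts 241 bases away, had 14.5, 15.2 and 15.3 CPM in siCtrl and 11.8, 9.16 and 12.2 CPM in siBAP18 cells. It was lower in every siBAP18 library (log2 fold change −0.45, SE 0.097, adjusted p = 0.000423, edgeR), and the log2 ratio changed by −1.41 (SE 0.0967, adjusted p = 5.92e-05, limma). CCDC144NL-AS1, with 56.8 ± 3.37 and 52.7 ± 1.86 CPM (SD, n = 3), did not pass, and the change of its ratio came with a rise of CCDC144NL from 6, 2 and 4 counts to 20, 18 and 12. SSTR5, a somatostatin receptor gene, had 10 to 35 counts per library, and the fall of the SSTR5-AS1 ratio (−1.08, adjusted p = 0.0302, limma) missed the threshold without either of siCtrl replicates 2 and 3 or siBAP18 replicates 1 and 2 (0.0618 to 0.0986). SSTR5-AS1 itself changed by −0.50. It shares 21.85% of its exon bases with RP11-161M6.5, which changed by −0.64. The depth of RP11-161M6.5 would place 92.3 counts there, of a mean count of 241.

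Opposite signs, both past adjusted p, were found in 7 pairs, and the same count over all opposite-strand pairs is not given here. DICER1-AS1 and BAIAP2-AS1 are 2 of the 7. CEBPA-AS1, head to head with the gene of the transcription factor C/EBP alpha, had 3.95, 4.47 and 3.89 CPM in siCtrl and 5.99, 5.70 and 5.53 CPM in siBAP18 cells, a log2 fold change of 0.49 (adjusted p = 0.00128, edgeR). CEBPA had 7.71, 7.01 and 7.45 CPM in siCtrl and 5.38, 5.69 and 6.96 CPM in siBAP18 cells, a log2 fold change of −0.31 (adjusted p = 0.0256, edgeR) whose adjusted p missed the threshold without any of siCtrl replicates 1 and 3 and siBAP18 replicates 1 and 2 (adjusted p 0.0644 to 0.143). ARHGAP5-AS1 changed by 0.46 and ARHGAP5 by −0.41, and ARHGAP5-AS1 had an adjusted p of 0.0725 (edgeR) without siBAP18 replicate 2. KMT2E-AS1 (0.57, beside −0.22 for KMT2E) was named after its value was seen. In the other 2 pairs the antisense gene shared at least 10% of its exon bases with a further opposite-strand gene that moved in its own direction. SEMA3F-AS1 had 22.7, 22.3 and 22.5 CPM in siCtrl and 34.8, 34.7 and 31.3 CPM in siBAP18 cells, a log2 fold change of 0.58 (SE 0.0724), while the semaphorin gene SEMA3F changed by −0.54. It shares 3.73% of its exon bases with SEMA3F and 27.2% with RBM5, a splicing regulator gene that changed by 0.50, and whose depth would place 1087 counts on SEMA3F-AS1, of a mean count of 1413. PPP3CB-AS1 changed by −0.37 and PPP3CB, a catalytic subunit of calcineurin, by 0.40. PPP3CB-AS1 shares 26.9% of its exon bases with USP54, which changed by −0.50, and 0.229% with PPP3CB.

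By arrangement, 101 members overlapped their partner at the 5′ ends, 66 at the 3′ ends, 55 lay inside it, 31 ran head to head without overlap, 19 enclosed it and 1 ran toward it without overlap. Called higher and lower were 6 and 1 of the 101, 1 and 2 of the 66, 1 and 0 of the 55, 2 and 1 of the 31, and 0 of the 19. In either direction these are 6.93%, 4.55%, 1.82%, 9.68% and 0% of small classes, beside the 5.01% of genes with at least 50 counts in every library. The ratio to the partner rose in 3 and fell in 2 of the 31 head-to-head pairs, which shared no exon base, and was called in 0 of the 66 that overlap at 3′ ends, beside 8.12% of all opposite-strand pairs and 5.75% of those with at least 50 counts in every library in both genes. For these 31 and 66 pairs r with the partner was 0.32 and 0.83, and the median absolute difference 0.49 and 0.11. Among pairs overlapping at 5′ ends the ratio rose in 5 and fell in 1. Among members inside the partner it rose in 1 and fell in 0, and among members enclosing the partner 0 were called. Of the members, 21 now carry a RefSeq symbol ending in -DT, for a divergent transcript, and 2 of them were called higher and 1 lower (3 of 21).

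Antisense RNAs with described roles were compiled as a list of 39, of which 19 were members. TMPO-AS1 was called lower and 0 were called higher, and at adjusted p alone 7 were higher and 6 lower. Of all genes with at least 50 counts in every library 5.01% were called, and 28.1% were higher and 30.7% lower at adjusted p alone, which is also the background of the short lists below. OIP5-AS1, also known as cyrano, had 43.2 ± 2.42 and 25.4 ± 2.53 CPM (SD, n = 3), a log2 fold change of −0.76 (SE 0.0778, adjusted p = 1e-08, edgeR), with −0.99 for OIP5, a centromere gene. STARD4-AS1 and STARD4, a sterol carrier gene, changed by −0.72 and −1.15. FGD5-AS1, PSMA3-AS1 and TTN-AS1 changed by −0.42, −0.45 and −0.59. The 7 that were higher were SBF2-AS1 (0.60), TRAF3IP2-AS1 (0.55), ST7-AS1 (0.48), SLC25A25-AS1 (0.35), MAPKAPK5-AS1 (0.24), AFAP1-AS1 (0.21) and MCM3AP-AS1 (0.19), and the partners SBF2 and TRAF3IP2 did not pass. The median of the 19 was 0.09. A short list of cell cycle genes, which does not hold every such gene, had 4 members as antisense partners, and at adjusted p alone 1 was higher and 3 were lower, namely TMPO-AS1, OIP5-AS1 and PRC1-AS1 (−0.66), beside MCM3AP-AS1 (0.19). With a partner symbol that starts like a transcription factor family, 4 of 14 were higher and 3 lower, and FOXD3-AS1 was called higher. The families looked for do not cover every transcription factor gene, and LBX2-AS1, also called higher, and CEBPA-AS1 are outside the 14. IDI2-AS1 and TPT1-AS1, among the 14, matched by first letters alone, since neither partner encodes a transcription factor, and IDI2-AS1 is 1 of the 3 lower. Of 2 members with a partner of the MAPK, stress or p53 genes, 1 was higher and 1 lower.

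The members with the smallest changes were CKMT2-AS1, PHKA2-AS1, DARS-AS1, USP2-AS1 and SLFNL1-AS1, each within 0.01 of 0 on the log2 scale. With single libraries left out, USP2-AS1 ran from −0.18 to 0.13 and PHKA2-AS1 from −0.17 to 0.11, while DARS-AS1 and SLFNL1-AS1 moved less. DARS-AS1, opposite the aspartyl-tRNA synthetase gene, had 10.5, 10.3 and 9.99 CPM in siCtrl and 10.3, 10.1 and 10.5 CPM in siBAP18 cells (SE 0.0882). CKMT2-AS1 changed by 0.00 (SE 0.128), and 0.13 without siBAP18 replicate 3, while RASGRF2, which overlaps it on the opposite strand, rose by 2.02. At the lower end of the count rule, LGALS8-AS1 and ITGA9-AS1 had lowest counts of 50 and 51 and log2 fold changes of 0.24 and 0.22. Just outside it were ZBED5-AS1 and TONSL-AS1, with lowest counts of 48 and 47 and log2 fold changes of −0.24 and −0.64.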

How the data were processed

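RNA of 6 A549 libraries was poly(A) selected and sequenced as 150-base pairs with a strand-marking kit, per the labels. The authors deposited raw counts per gene, and the same values as RPKM, scaled by exon length and library total. Aligner, counting program and use of strand are not given in the sources used here. Per the submitters' processing notes, builds hg38 and GRCm38 were named, and the exon positions are those of GRCh38.

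The deposited counts were fitted with edgeR 4.0.16 in R 4.3.3 (filterByExpr, TMM, quasi-likelihood test, Benjamini-Hochberg adjustment over 20776 genes). SE is the log2 fold change over the square root of F. CPM uses TMM-scaled totals. Antisense to partner differences of log2 CPM (prior count 2) were fitted with limma 3.58.1 (trend) and adjusted over 9080 opposite-strand pairs. P-values measure the spread between 3 cultures a group, and sharing was computed from the deposited exons. Alternatives used the DESeq2 1.42.0 Wald test, upper-quartile scaling, log2(RPKM + 0.1) in limma, a minimum of 10 counts per library or none, a replicate block, voom weights, prior count 0.5, other member minimums, and each library left out. Steps were tested on simulated data. Replicates of a group differed by more than sampling noise. Chi-square per degree of freedom was 3.94 to 4.56 between siCtrl libraries and 10.1 to 23.3 between siBAP18 libraries, highest for replicates 2 and 3.

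Named genes were the target and antisense genes over it, the 10 highest members by RPKM, up to 10 largest rises and falls among called members without overlap, the 5 smallest changes, up to 8 ratio changes each way, up to 6 pairs of opposite sign, their partners, genes at the count limit, and called genes of the role list. PAPPA-AS1, the other role and cell cycle list genes and the overlapping genes were named after their values were seen. Partners were matched by symbol or older symbol. RefSeq names matched 270 members. Of the members counted, 1 is not reported here by name or value. Members, lists and rules were chosen with earlier results of these data known. Plots were drawn in Python 3.11.15 with matplotlib 3.10.9.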

Additional observations from a re-analysis of the deposited data

How the results depend on the processing

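The numbers of members called did not depend on scaling, tool, filter or replicate block by more than 1 higher or lower. At adjusted p alone, limma on log2(RPKM + 0.1) gave 51 higher and 44 lower, beside 59 and 60 in the main fit. Leaving out each library in turn gave 9 to 11 called higher and 3 to 5 lower, 51 to 63 higher and 48 to 60 lower at adjusted p alone, 8 to 9 ratios that rose and 2 to 3 that fell, and a median log2 fold change of members from −0.0094 to 0.0332. With a minimum of 20 counts 19 of 392 members were called higher and 6 lower (2.64% and 3.16% of all genes with that minimum), and with 100 counts 5 and 3 of 192 (1.8% and 2.71%). Of the 110 members with under 10% of exon bases on opposite-strand exons, 4 were called higher and 1 lower, with a median of 0.0249. That is 4.5% called, beside 5.01% of genes with at least 50 counts in every library. The median was 0.0226 with upper-quartile scaling, 0.02 with the DESeq2 Wald test, 0.0201 with at least 10 counts in every library and −0.0029 with no filter. With voom weights 10 ratios rose. Other minimums change which members are counted; the cause of the other moves was not tested. With the replicate number as a block, 10 members were called higher and 4 lower, 61 and 62 at adjusted p alone, and 9 ratios rose and 3 fell. Same-numbered libraries had residual correlations of −0.0166, 0.0506 and 0.00379, so the numbers were not taken as pairs. Of 1080 single-gene values under alternatives, 1028 kept their side of the threshold, 29 lost it, 16 gained it and 7 that had not passed moved. A change of sign occurred in 27, from 10 genes or pairs that had not passed adjusted p, and in 0 that had. Beside those given with the results, PPP3CB-AS1 and SYNE1 lost significance with limma on RPKM (adjusted p = 0.0702 and 0.063), ODF2-AS1 with DESeq2 (0.0515) and RAB11B without siCtrl replicate 1 or siBAP18 replicate 1 (0.0694 and 0.0637). USP2-AS1, with a mean count of 81.5, had an SE of 0.208, and NUCB1-AS1, with a mean count of 18050, had 0.083. How far depth sets the SE was not tested.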

Other observations

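Genes with other antisense or overlapping names (-AS, -AS2, -AS3, -IT1, -OT1) and at least 50 counts in every library numbered 24, and 3 were called higher and 0 lower by edgeR (12 higher and 1 lower at adjusted p alone). Of all genes with that many counts 5.01% were called, and 28.1% were higher and 30.7% lower at adjusted p alone. The 24 had a median log2 fold change of 0.20. LPP-AS2 had 5.64, 4.88 and 4.88 CPM in siCtrl and 15.4, 13.2 and 15.0 CPM in siBAP18 cells (adjusted p = 6.41e-12, edgeR), without overlap. The log2 fold change was 1.35 for HOXC13-AS and 1.00 for NCBP2-AS2.

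Among -AS1 genes below the minimum of 50 counts, 256 were tested, and 32 were called higher and 12 lower, 17.2% in either direction, the same share as among all 5903 genes tested below that minimum (17.2%).

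Of all genes in the table, 567 had at least 99% of their exon bases on exons of opposite-strand genes, and 232 of these had a mean count of at least 50, the highest being RP11-290D2.6 with 43030.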
